A study of Mus musculus with 4 samples.

Results

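The cells described here are lumbar dorsal root ganglion (DRG) neurons with transcripts of Col25a1, Slc5a7, Stum, Prokr2 and C1qtnf7, working name PEP2-like. They were chosen by measured values. A cell with at least 1500 genes, at most 10% mitochondrial UMIs and at least 5000 UMIs (unique molecular identifiers, each counting 1 captured transcript) was a member when it had at least 1 UMI in at least 3 of those 5 genes, fewer than 2 UMIs of Dcn and at most 1.718 Sprr1a UMIs per 10000 UMIs of the cell. This rule found 514 members among 23691 deposited cells, or 2.17%. All 514 were neurons by a separate definition (at least 1 UMI in at least 4 of Tubb3, Snap25, Uchl1, Prph, Avil, Rbfox3 and Isl1, and less than 5% of UMIs from Apoe and Fabp7). So were 17553 of the 17836 cells past the filters on genes, mitochondrial UMIs and UMIs, and this therefore says little about the members. The levels of the 5 gate genes, of Dcn and of Sprr1a in members follow from the rule and are given as a description only.

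Peptidergic nociceptors are sensory neurons that detect tissue damage, heat or chemicals and release calcitonin gene-related peptide (CGRP, from Calca and Calcb) and substance P (from Tac1) from their endings. Some have large cell bodies, thinly myelinated axons and neurofilament heavy chain (Nefh). Slc5a7 encodes the high-affinity choline transporter that cholinergic nerve endings use to take up choline, Col25a1 a membrane-bound collagen, and Prokr2 a receptor for prokineticins, secreted peptides that sensitize nociceptors.

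The study asked how a partial injury of the sciatic nerve changes gene expression in different DRG neurons. Mice were heterozygous for an EGFPf reporter knocked in at Pirt, so that the Pirt promoter, active in most DRG neurons, drove it, and were on a C57BL/6 background and 7 to 8 weeks old. Both sciatic nerves were either loosely tied (chronic constriction injury, CCI) or exposed in a sham operation. On day 7 the L4-5 DRGs were dissociated, GFP+ cells were sorted, and 10x Chromium 3' v3 libraries were made. There were 4 libraries, and each pooled 20 DRGs of 5 mice, so no value covers the spread between mice. CCI and sham each had n = 2 libraries, 1 of each sex. Litter followed surgery, and the effects of litter and surgery cannot be told apart.

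Where 4 values follow each other, the first 2 are sham and the last 2 CCI libraries, with the male before the female library of each surgery. The libraries held 5019, 8035, 4019 and 6618 deposited cells with 199428489, 237069156, 196661026 and 195684124 UMIs. Members numbered 132, 219, 71 and 92, with 8191486, 9229406, 4793070 and 4555620 UMIs. The median depth was 55008, 37611, 62648 and 47802.5 UMIs per member, beside 46161, 32999, 56833 and 44516 UMIs per neuron. Members were thus somewhat deeper than the average neuron in each of the 4 libraries. Levels are given as CPM (counts of a gene scaled to a common total of UMIs) of the summed cells of a class, and they are compared for 1 gene between classes or libraries, not between genes.

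Libraries shared cell barcodes. Male-Sham and Female-CCI had 513 barcodes in common (10.2% of the smaller library), Male-CCI and Female-CCI 452 (11.2%), and Female-Sham and Female-CCI 387 (5.85%). The other pairs shared 250 (Male-Sham and Male-CCI, 6.22%), 223 (both sham libraries, 4.44%) and 215 (Female-Sham and Male-CCI, 5.35%). Among members, 32 (24.2%), 20 (9.13%), 23 (32.4%) and 4 (4.35%) had a barcode that also occurred in another library, beside 10.7%, 2.68%, 14.6% and 1.00% of all neurons. No barcode was a member in more than 1 library. Members carried such barcodes more often than neurons at large in all 4 libraries, and why was not tested. Counts and named genes below are therefore also given without these cells.

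Cells just outside the gate had exactly 2 of the 5 genes and otherwise met the rule. There were 145, 261, 89 and 115 of them, beside 61, 112, 38 and 45 members with exactly 3 gate genes and 71, 107, 33 and 47 with 4 or 5. Prokr2 was at 20.2, 23.6, 23.0 and 20.3 CPM just outside and 36.4, 41.8, 41.1 and 35.0 CPM just inside. Sema5a, which the rule did not use, was at 40.8, 41.5, 39.6 and 37.7 CPM just outside, 102, 96.6, 86.5 and 66.3 CPM with 3 gate genes and 128, 102, 123 and 91.0 CPM with 4 or 5. Calca showed no such step, with 15758.7, 15890.3, 14899 and 16449 CPM just outside and 13256, 15376, 15728 and 15392 CPM just inside. At the other limit, 1, 0, 6 and 13 cells passed the gate with more Sprr1a than allowed.

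The label was checked on genes outside the gate. Calca was at 13569, 15569.6, 15455 and 15817 CPM in members and at 7698, 8391, 7608 and 8318 CPM in the other neurons with low Sprr1a, so every member sum was above every sum of other neurons. Nefh was at 512, 440.4, 504 and 385 CPM, beside 317, 259, 422 and 303 CPM, higher in members within each library, but members outside a minority high in 8 variable genes (defined with the cell-to-cell variation) had 226, 211, 264 and 203 CPM, below other neurons, which hold such cells too, in all 4. Kit, a receptor tyrosine kinase, was at 207, 183, 156 and 118 CPM, beside 47.1, 50.7, 41.3 and 46.7 CPM. Calca and Kit thus fit a peptidergic label, whereas the Nefh level was carried by a minority of members. Tac1 did not set members apart, with 2409.9, 2751, 2577 and 3465 CPM beside 2686, 3113, 2552 and 3195 CPM. Markers of other sensory classes were not all low. Of 24 such genes, summed levels were 921, 1169, 957 and 1306 CPM in members and 793, 861, 746 and 799 CPM in other neurons, with 0 of them at 0 UMIs. Cartpt, a peptide precursor, was the most abundant, at 707, 957, 626 and 808 CPM beside 215, 283, 207 and 224 CPM. It made up most of the members' sum, and without it that sum lay below the sum of other neurons in each library. The list also holds Dcn, which the rule limits in members, so the sum is not wholly outside the rule. Trpm8, the cold receptor, had a UMI in 9.85%, 7.31%, 9.86% and 6.52% of members, beside 10.4%, 8.89%, 11.8% and 10.8% of other neurons. Each cell was also thinned to the lowest UMI total that the rule allows, which makes depths equal. A Trpm8 UMI then remained in 1.52%, 1.37%, 1.41% and 1.09% of members. This was below the 4.66%, 3.67%, 5.05% and 4.69% of other neurons in each library. Mrgprd had a UMI in 6.82%, 3.65%, 1.41% and 1.09% of members, beside 21.1%, 15.9%, 14.8% and 11.3% of other neurons.

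The name of the cells also needs a limit. Col25a1 was at 36.1, 40.5, 23.4 and 29.2 CPM in members and at 1.61, 2.44, 1.08 and 2.22 CPM in other neurons, yet at 48.8, 36.6, 48.5 and 45.9 CPM in neurons with Dcn and Tmc3 transcripts, a class that shares gate genes with the members. Slc5a7 was at 43.8, 59.2, 59.9 and 65.2 CPM in members and at 24.8, 24.9, 30.2 and 30.9 CPM in Dcn Tmc3 neurons. Prokr2 was nearly missing from that class, with 51.6, 55.4, 48.8 and 52.0 CPM in members and 0.960, 2.36, 0.642 and 0 CPM in Dcn Tmc3 neurons. Any Slc5a7 UMI was found in 89.4%, 85.4%, 90.1% and 96.7% of members and in 10.4%, 11.3%, 14.2% and 16.2% of other neurons. Cells like satellite glia, which surround the neurons, had 0 cells with an Slc5a7 UMI among 99, 51, 64 and 49, at median depths of 7118, 6207, 6445 and 6375 UMIs. None of them passed the gate, which allows shares of up to 3.66%, 6.98%, 5.60% and 7.25% (exact Clopper-Pearson 95% intervals, which cover counting error only). After thinning each cell to 5000 UMIs, an Slc5a7 UMI remained in 25.8%, 26.9%, 22.5% and 22.8% of members.

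Members were chosen in part by the choline transporter gene Slc5a7, so other genes of acetylcholine handling were read beside it. Chat, the enzyme that makes acetylcholine, and Slc18a3, the vesicular acetylcholine transporter, had 0 UMIs in members of all 4 libraries, in the other neurons and in satellite glia-like cells. A gene with 0 UMIs is not detectable at this depth and is not shown to be absent. Chat also had 0 UMIs in Dcn Tmc3 neurons, whereas Slc18a3 had a UMI in 0.671%, 0.687%, 0 and 1.28% of them. Ache, the acetylcholine-degrading enzyme, was at 134, 133, 118 and 90.4 CPM in members and 56.1, 55.9, 49.6 and 41.6 CPM in other neurons. Of 12 listed genes for acetylcholine and choline handling, 10 had UMIs in members and 8 could be tested for a change with CCI. The 10 include Slc5a7 itself, which was not tested and whose UMIs follow from the rule. By edgeR, 0 of those 8 passed, beside 4.99% of all tested genes, and a list this short does not tell the shares apart. Of 4 prokineticin genes, 3 had UMIs, among them the gate gene Prokr2, whose UMIs follow from the rule. The ligand gene Prok2 stayed at or below 0.209 CPM in the 4 libraries.

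Outside the gate, 15 genes set members off most from other neurons. Each named gene had at least 50 CPM in members of all 4 libraries, and genes were ranked by their lowest ratio over the libraries. Sema5a, a semaphorin that steers axons, led with 115, 99.0, 104 and 79.2 CPM in members and 6.69, 6.01, 10.5 and 12.6 CPM in other neurons, ratios of 6.30 to 17.2. Much of it lay in the members high in 8 variable genes, and the remaining members had 39.6, 36.6, 36.2 and 32.5 CPM, still above other neurons. In Dcn Tmc3 neurons it was at 16.3, 15.999, 26.6 and 15.4 CPM. Nrp2, a co-receptor for semaphorins and vascular growth factors, was at 182, 165, 158 and 147 CPM, beside 30.2, 28.5, 34.4 and 34.9 CPM. Ngfr, the low-affinity neurotrophin receptor p75, was at 689.7, 636, 627 and 561 CPM, beside 133, 129.8, 142 and 156 CPM, and at 199, 183, 213 and 200.2 CPM in Dcn Tmc3 neurons. Receptors for lipid mediators were among them too. Ptgir, the prostacyclin receptor, was at 154, 167, 159 and 171 CPM, beside 34.2, 36.1, 37.9 and 44.3 CPM. S1pr3, a receptor for sphingosine-1-phosphate, was at 199, 204, 269 and 306 CPM, beside 58.996, 64.2, 71.3 and 85.7 CPM. Pou4f3, a transcription factor of sensory neurons, was at 128, 120.4, 107 and 103 CPM, beside 28.0, 27.6, 27.0 and 31.3 CPM. The others of these 15 genes were Ptn, Vat1l, Sulf1, S100a16, Trappc3l, Pcp4l1, Cyp1b1, Nfib and Fxyd5, with lowest ratios of 3.03 to 4.29. S100a16 is also among the 8 variable genes described with the cell-to-cell variation. Members high in those genes had 378, 317, 188 and 284 CPM of it, and the remaining members 7.63, 5.47, 3.42 and 3.39 CPM, so a minority carried its level. These ratios follow from the choice of the genes and are a description only. Their median was at least 3.60 in each library, 3.64 without shared barcodes, 3.57 without the cells high in 8 genes and 3.26 with 0 Sprr1a UMIs.

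**Figure D1:**
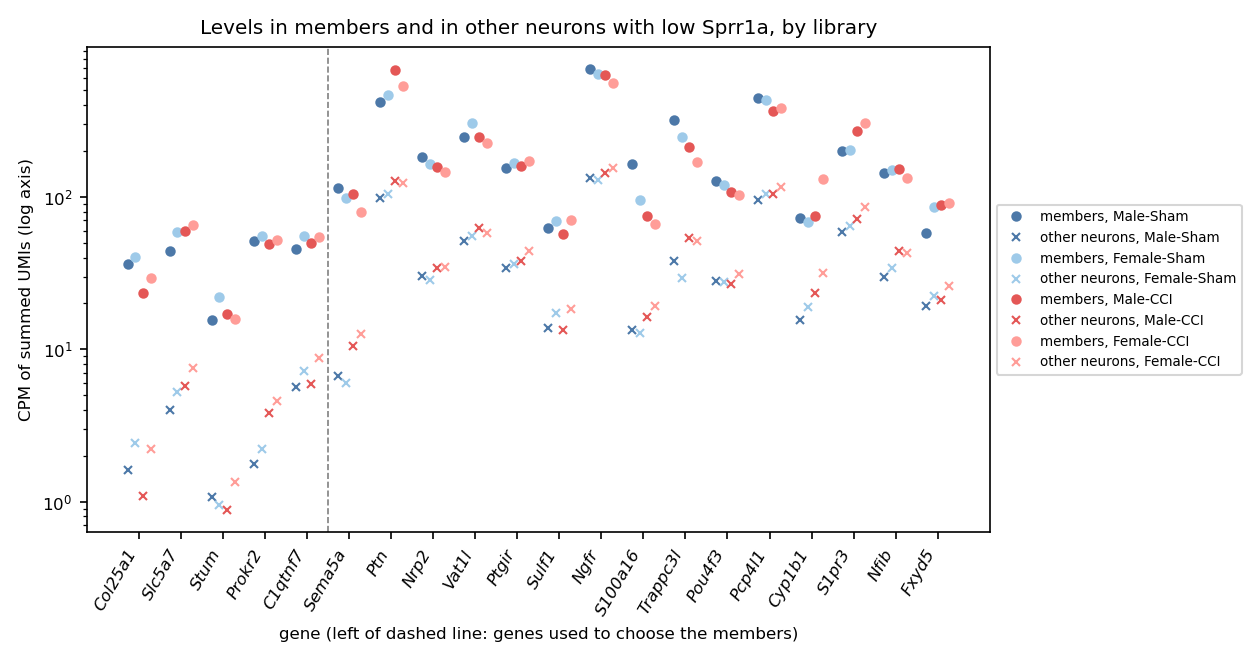
Levels of the 5 gate genes (left of the dashed line) and of 15 further genes in members and other neurons with low Sprr1a, 1 point per library.

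Members were not uniform. The 10 genes with the largest cell-to-cell variation beyond counting noise were S100a16, Serpinb1a, Cntn1, Onecut2, Ly6h, Fgf12, Cplx2, Serpinb1b and the glial genes Apoe and Fabp7. For S100a16, a calcium-binding protein, the excess squared coefficient of variation was 3.93, 6.01, 7.15 and 8.45, beside medians over 3035 genes of 0.0847, 0.0603, 0.0664 and 0.0735. The first 8 of these genes went together: the median Spearman correlation of their 28 pairs across members was 0.588, 0.495, 0.536 and 0.413 within a library. These are descriptions across cells that share a library and differ in depth, and genes and cells are not replicates. Across the same cells the 8 genes had a median correlation of -0.640, -0.522, -0.474 and -0.450 with Tac1 and of -0.331, -0.2704, -0.340 and -0.242 with Slc5a7.

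After this was seen, members with at least 2 UMIs in at least 5 of the 8 genes were set apart. They made up 41 of 132 (31.1%), 42 of 219 (19.2%), 22 of 71 (31.0%) and 15 of 92 (16.3%) members, with exact 95% intervals of 23.3% to 39.7%, 14.2% to 25.0%, 20.5% to 43.1% and 9.42% to 25.5%. With the 128, 209, 71 and 90 members that could be thinned to 20000 UMIs, the shares were 28.9%, 20.6%, 21.1% and 14.4%. Among other neurons with low Sprr1a, 9.70%, 6.61%, 15.4% and 12.6% met the same definition, and among Dcn Tmc3 neurons 2.01%, 2.06%, 3.70% and 1.28%. The shares were higher in the male than in the female library of each surgery, and no test was made on them. Serpinb1a, 1 of the 8 genes, was at 12.7, 14.4, 128 and 120 CPM in the remaining members. It was thus higher after CCI there, so the definition is not independent of CCI. In Male-CCI, 8 of the 22 members set apart had exactly 5 of the 8 genes. How far this moved the shares was not tested.

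These cells differed from the remaining members in other genes as well, of which Vsnl1 and Ntrk3 were picked for their high ratio. Vsnl1, a neuronal calcium sensor, was at 160, 197, 152 and 156 CPM in them and at 1.48, 1.37, 0 and 1.70 CPM in the remaining members. Ntrk3, the neurotrophin-3 receptor, was at 97.6, 115, 74.5 and 103 CPM, beside 5.51, 3.95, 1.37 and 1.70 CPM. Nefh was at 901, 1010.07, 882 and 1017 CPM, above the remaining members and other neurons in all 4 libraries. No list of large-fibre genes was read in these cells. Tac1, Calca and Trpv1 were lower in them, but Kit did not, with 255, 240.1, 193 and 178 CPM beside 172, 161, 132 and 101 CPM. Tac1 was at 675, 263, 1169 and 123 CPM, beside 3687, 3755, 3473 and 4425 CPM. Calca was at 9612, 8949, 13263 and 8567 CPM, beside 16480.2, 18241, 16851 and 17899 CPM. Trpv1, the capsaicin and heat receptor, was at 45.5, 36.6, 108 and 33.4 CPM, beside 219, 238, 226 and 270.4 CPM. Slc5a7 was lower in them, with 20.7, 26.0, 39.1 and 28.5 CPM beside 60.8, 72.5, 73.1 and 75.7 CPM, whereas Prokr2, with 41.2, 61.4, 56.3 and 61.0 CPM beside 59.3, 52.9, 44.1 and 49.4 CPM, was not lower in every library. They were also deeper, with a median of 84120, 67078, 81066.5 and 70288 UMIs beside 48961, 35714, 55589 and 46632. Shared barcodes were more frequent in them, at 61.0%, 38.1%, 50% and 20.0% beside 7.69%, 2.26%, 24.5% and 1.30%, and the part of depth and shared barcodes in this pattern was not tested. Whether the gate joins 2 cell classes was not tested either.

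**Figure D2:**
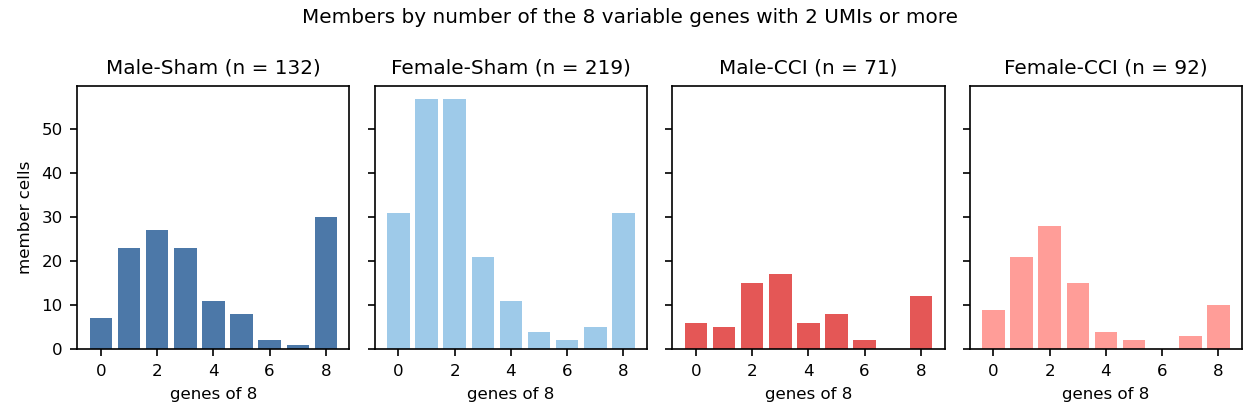
Number of members by how many of the 8 variable genes had at least 2 UMIs, in each library.

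How many members each library held was compared as a share of its neurons. Members were 3.47% of neurons in Male-Sham (exact Clopper-Pearson 95% interval 2.91% to 4.10%), 3.43% in Female-Sham (2.997% to 3.91%), 2.17% in Male-CCI (1.70% to 2.73%) and 2.25% in Female-CCI (1.82% to 2.75%). Both CCI shares were below both sham shares, and the mean difference was -1.24 percentage points. The exact permutation test (two-sided) gave p = 0.333, the smallest value that 2 against 2 libraries allow, so a difference cannot be shown. Without shared barcodes the difference was -1.13 points. The rule itself touches this share, because members may hold little Sprr1a and Sprr1a-high cells were 1.87%, 3.60%, 53.5% and 51.6% of all neurons. With neurons of low Sprr1a as the denominator the order turned: 3.54% (2.97% to 4.18%), 3.56% (3.11% to 4.05%), 4.67% (3.67% to 5.86%) and 4.64% (3.76% to 5.67%), a difference of 1.11 points. Removing the cells with the highest doublet scores took out 33, 42, 7 and 3 members (25.0%, 19.2%, 9.86% and 3.26%, beside 15.8%, 17.0%, 14.7% and 13.5% of neurons) and gave -0.809 points and asking for at least 4 gate genes -0.692 points. Applying the gate to cells thinned to 5000 UMIs gave -0.256 points.

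Sprr1a, an early marker of injured neurons, exceeded the limit in 0.752%, 0 (up to 1.67%), 7.79% and 12.4% of all gate-passing cells, and in 0, 0.342%, 6.90% and 10.3% of Dcn Tmc3 cells. These shares count only cells that still had transcripts of 3 gate genes, or of Tmc3 and Dcn, so cells that had lost them are not covered and a comparison with all neurons was not made. Members still carried traces of it: 2.27%, 5.48%, 71.8% and 72.8% had any Sprr1a UMI, beside 2.52%, 4.80%, 66.6% and 63.3% of other neurons with low Sprr1a. Satellite glia-like cells, which should lack it, had a Sprr1a UMI in 2.02%, 5.88%, 25.0% and 32.7% of cells at the lower depths given above. How much of the Sprr1a in members was free RNA was not tested.

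**Figure D3:**
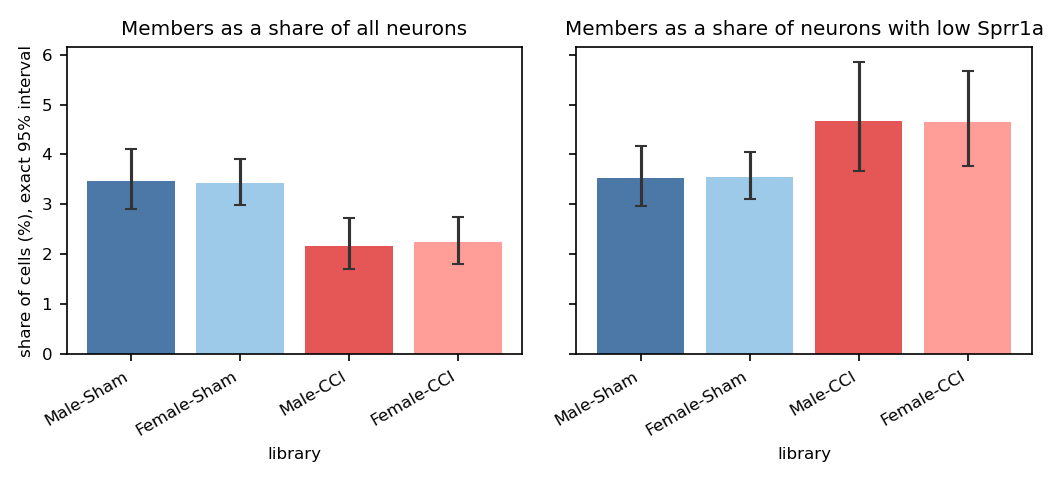
Members as a share of all neurons and of neurons with low Sprr1a, with exact 95% intervals that cover counting error only.

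CCI against sham asked which genes members changed while keeping Sprr1a low. Among the named genes, Pappa, Bdnf, Alkal2, Sox11, Eif2ak2 and Ly6e rose, and Kcnj3, Pcp4, Adam11 and Ano3 fell, as did Selenop and Fabp7, which are abundant in satellite glia. Of 11997 genes tested, 599 passed (4.99%) at an adjusted p below 0.05 and an absolute log2 difference above 0.5, by the edgeR quasi-likelihood test with Benjamini-Hochberg adjustment on UMI counts summed per library. Of these, 337 were higher (2.81%) and 262 lower (2.18%) after CCI, and the median log2 difference of all tested genes was 0.00. DESeq2 called 311. Without shared barcodes the count was 525, with 379 of the 599 among them, and without Male-CCI it was 981. Without the cells high in the 8 variable genes it was 665, with 415 of the 599 among them.

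Pappa, a metalloprotease that cleaves binding proteins of insulin-like growth factors, was at 5.13, 9.53, 74.1 and 92.0 CPM. Both CCI libraries lay far above both sham libraries, and the gene was detected in 15.9%, 16.9%, 50.7% and 58.7% of members. The log2 difference was 3.50 (SE 0.25), higher in 2 of 2 CCI libraries (edgeR quasi-likelihood, Benjamini-Hochberg adjusted p = 0.00086). It was at 5.81, 3.84, 16.7 and 21.3 CPM in other neurons and at 4.03, 1.18, 4.17 and 3.43 CPM in Dcn Tmc3 neurons, and the difference between the classes was not called. Bdnf, a neurotrophin that nociceptors release in the spinal cord, was at 108, 128, 248 and 355 CPM, and its CCI values did not overlap those of sham. Its log2 difference was 1.37 (SE 0.21), higher in 2 of 2 CCI libraries (edgeR quasi-likelihood, Benjamini-Hochberg adjusted p = 0.031). The call ended without Female-Sham (1.51, edgeR quasi-likelihood, Benjamini-Hochberg adjusted p = 0.062) and without the cells high in the 8 genes (1.42, edgeR quasi-likelihood, Benjamini-Hochberg adjusted p = 0.069). Alkal2, a ligand of the receptor kinase ALK, was at 43.3, 60.5, 116 and 148 CPM, again without overlap. It rose by a log2 of 1.36 (SE 0.21) in 2 of 2 CCI libraries (edgeR quasi-likelihood, Benjamini-Hochberg adjusted p = 0.023). Sox11, a transcription factor of growing neurons, was at 31.3, 36.0, 69.7 and 95.5 CPM and rose by a log2 of 1.31 (SE 0.15) in 2 of 2 CCI libraries (edgeR quasi-likelihood, Benjamini-Hochberg adjusted p = 0.0013).

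Of the named genes, 3 are known to be induced by interferon, and no list of such genes was tested. Eif2ak2, the kinase PKR that double-stranded RNA activates, was at 16.2, 19.1, 44.6 and 52.5 CPM, beside 15.9, 17.0, 32.0 and 37.0 CPM in other neurons. Its groups did not overlap, and the log2 difference was 1.47 (SE 0.13), higher in 2 of 2 CCI libraries (edgeR quasi-likelihood, Benjamini-Hochberg adjusted p = 9.2e-06). Ly6e, a membrane-anchored surface protein, was at 17.7, 21.2, 49.0 and 53.1 CPM. It rose by a log2 of 1.41 (SE 0.13) in 2 of 2 CCI libraries (edgeR quasi-likelihood, Benjamini-Hochberg adjusted p = 8e-06), or by 0.95 without shared barcodes. Gbp7, a guanylate-binding GTPase, was at 10.99, 13.98, 26.7 and 34.2 CPM and rose by a log2 of 1.30 (SE 0.17) in 2 of 2 CCI libraries (edgeR quasi-likelihood, Benjamini-Hochberg adjusted p = 0.0004). Without shared barcodes its call ended, at 1.21 (edgeR quasi-likelihood, Benjamini-Hochberg adjusted p = 0.061). In satellite glia-like cells Eif2ak2 was at 17.9, 14.9, 48.2 and 40.5 CPM, Ly6e at 14.1, 2.97, 57.0 and 12.5 CPM and Gbp7 at 38.3, 44.6, 145 and 74.7 CPM, each highest in a CCI library, and the part of such background in their rise was not tested.

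The other genes named for their rise were Ptprt, Exoc3l4, Arxes1, Arxes2 and Gm8797. Ptprt, a receptor-type tyrosine phosphatase, was at 46.0, 50.5, 96.4 and 144 CPM in members, and at 101, 109, 114 and 131 CPM in other neurons, so that members started lower and reached a like level after CCI. Its log2 difference was 1.33 (SE 0.20), higher in 2 of 2 CCI libraries (edgeR quasi-likelihood, Benjamini-Hochberg adjusted p = 0.018). Exoc3l4 was at 7.57, 11.2, 22.3 and 36.0 CPM (log2 difference 1.64). Arxes1 and Arxes2 are near-identical neighbours on chromosome X (positions 136033367 and 135993824 of GRCm38), and Gm8797 may be a copy of a gene elsewhere, so which copy their UMIs came from is uncertain. Arxes1 was at 59.1, 55.0, 155 and 198 CPM, Arxes2 at 92.9, 107, 210.3 and 306 CPM, and Gm8797 at 11.1, 9.21, 53.4 and 41.9 CPM, with 7.67, 2.97, 30.7 and 21.8 CPM of Gm8797 in satellite glia-like cells. Their log2 differences were 1.65, 1.39 and 2.26, and the call of Arxes2 ended without Female-Sham (1.504, edgeR quasi-likelihood, Benjamini-Hochberg adjusted p = 0.079).

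Among neuronal genes that fell, Kcnj3, a subunit of G protein-gated potassium channels, was at 22.2, 23.8, 11.9 and 9.22 CPM. It had 0, 5.94, 0 and 0 CPM in satellite glia-like cells, and its sham and CCI values in members did not overlap. The log2 difference was -1.10 (SE 0.17), lower in 2 of 2 CCI libraries (edgeR quasi-likelihood, Benjamini-Hochberg adjusted p = 0.0011). Pcp4, a calmodulin-binding peptide, was at 102, 98.5, 29.2 and 42.8 CPM in members and at 532, 446, 367 and 303 CPM in other neurons. It fell by 1.46 on the log2 scale (SE 0.14) in 2 of 2 CCI libraries (edgeR quasi-likelihood, Benjamini-Hochberg adjusted p = 0.00021). Adam11, a neuronal member of the ADAM family, was at 118, 105, 62.0 and 43.7 CPM, and Ano3, an anoctamin, at 86.7, 69.9, 46.1 and 33.6 CPM, both without overlap of the groups. They fell by 1.05 and 0.95 on the log2 scale. Rph3a, a protein on synaptic vesicles that binds Rab3, was at 82.6, 54.1, 34.2 and 34.5 CPM. It fell by 0.96 on the log2 scale (SE 0.21, edgeR quasi-likelihood, Benjamini-Hochberg adjusted p = 0.047) in 2 of 2 CCI libraries, and this call ended without shared barcodes (-0.46), without Male-CCI (-0.96), without Female-CCI (-0.97) and without the cells high in the 8 genes (-0.36). Zfp672, a zinc finger gene, was at 22.3, 25.4, 11.9 and 12.1 CPM (log2 difference -0.97).

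Genes abundant in satellite glia fell as well. Selenop, a secreted selenium carrier, was at 32.1, 28.4, 8.35 and 11.4 CPM in members and fell by 1.59 on the log2 scale. Fabp7, a fatty acid-binding protein, was at 328, 269, 122 and 156 CPM and fell by 1.08. Cryab, Gpm6b and Sparc fell by 1.23, 1.20 and 1.14, and the call of Sparc ended without shared barcodes (-1.19). Of 9 listed satellite glia markers, all with UMIs in members, 6 fell and 0 rose, beside 2.18% and 2.81% of all tested genes, with a median log2 difference of -1.05. Their summed level was 2879, 2654, 1599.6 and 1775 CPM in members, with Apoe the most abundant at 1312, 1143, 386 and 603 CPM and none at 0. The sum was 2314, 2609, 1831 and 1891 CPM in other neurons and 152180, 156431, 132920 and 147604 CPM in satellite glia-like cells. Markers of satellite glia were thus lower after CCI in members and in other neurons, and their part in the changes of Selenop, Cryab, Gpm6b and Sparc was not tested.

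Some of these calls were lost in other settings, most of which also kept fewer members, so a lost call does not show that the change depended on the choice of cells. Asking for at least 4 gate genes left 71, 107, 33 and 47 members and ended the calls of Arxes2 (1.54), Bdnf (1.49), Alkal2 (1.33), Ptprt (1.75), Gpm6b (-1.29), Sparc (-1.32), Fabp7 (-1.54), Zfp672 (-0.78) and Rph3a (-1.07), with the log2 differences given. With 0 Sprr1a UMIs, 129, 207, 20 and 25 members were left, without calls for Bdnf (1.39), Alkal2 (0.77), Gbp7 (0.82), Cryab (-1.01), Gpm6b (-0.32), Sparc (-0.40), Fabp7 (-0.45), Zfp672 (-0.68), Rph3a (-1.15) and Ano3 (-0.79). Removing the cells with the highest doublet scores left 99, 177, 64 and 89 members. It ended the calls of Bdnf (1.37), Gpm6b (-0.77), Sparc (-0.75) and Rph3a (-1.18). Thinning to 20000 UMIs left 76, 131, 38 and 56 members and ended those of Arxes1 (1.37), Arxes2 (1.04), Bdnf (1.34), Alkal2 (1.55), Ptprt (1.18), Adam11 (-0.63) and Rph3a (-0.41). With library totals Sparc (-1.16) and Rph3a (-0.99) were also lost, as they were with low satellite glia RNA. None of these changed direction. Pappa, Eif2ak2, Ly6e, Sox11, Selenop, Pcp4 and Kcnj3 kept their calls under each of these settings.

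Without shared barcodes the log2 differences of the risen genes that kept their calls were 3.51 (Pappa), 2.34 (Gm8797), 1.51 (Arxes1), 1.68 (Exoc3l4), 1.45 (Eif2ak2), 0.95 (Ly6e), 1.31 (Arxes2), 1.30 (Bdnf), 1.17 (Alkal2), 1.27 (Ptprt) and 1.20 (Sox11). Those of the fallen genes were -1.69 (Selenop), -1.10 (Pcp4), -1.15 (Cryab), -1.20 (Gpm6b), -1.33 (Kcnj3), -1.16 (Fabp7), -0.95 (Adam11), -0.86 (Zfp672) and -0.86 (Ano3). None changed direction.

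**Figure D4:**
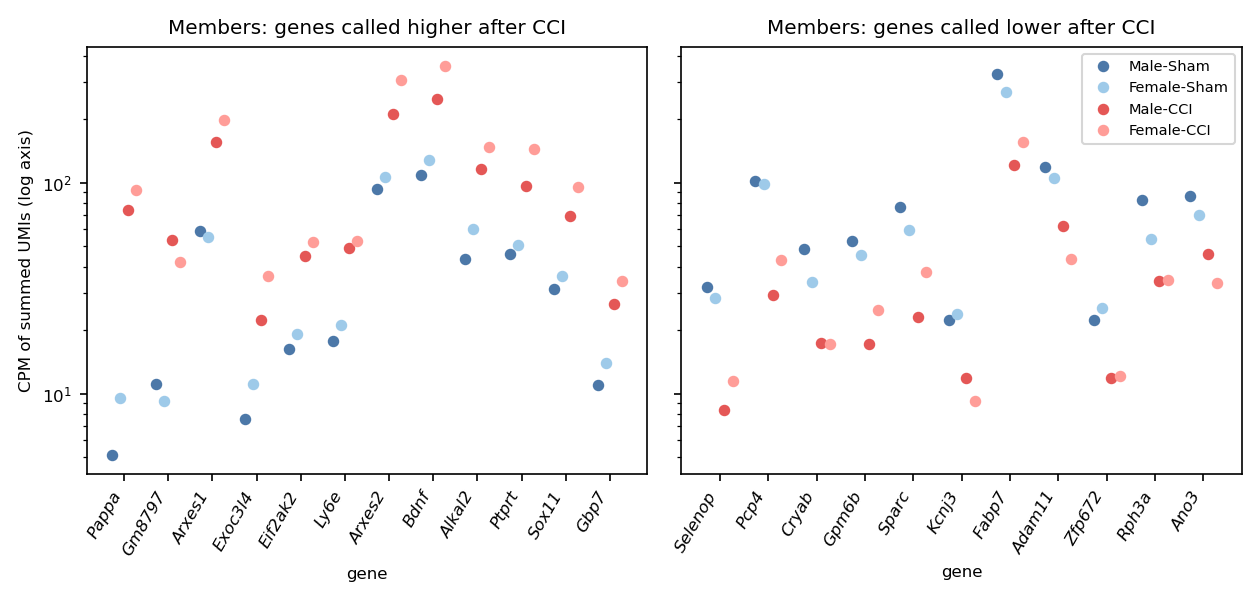
Levels in members of the genes named for a rise or a fall after CCI, 1 point per library.

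Injury-associated genes were read as a list, with Sprr1a held low by the rule. Of 40 listed genes 28 could be tested, and 14 rose, 0 fell and all 28 had a log2 difference above 0, with a median of 0.61 beside 0.00 for all tested genes, of which 2.81% rose and 2.18% fell. The list holds genes that earlier results of these libraries had pointed to, so it is not independent evidence. Its summed level was 9524, 9403, 11712 and 11724 CPM in members and 7903, 8116, 10372 and 11037 CPM in other neurons. Kif22, a kinesin, was at 20.0, 21.8, 40.7 and 58.4 CPM, Flrt3, an adhesion molecule of axons, at 12.1, 14.3, 24.6 and 33.4 CPM, and Ecel1, a peptidase of injured neurons, at 0.610, 0.650, 3.34 and 5.71 CPM. They rose by 1.26, 1.15 and 2.82 on the log2 scale. In satellite glia-like cells Kif22 was at 6.39, 5.94, 17.5 and 31.1 CPM, Flrt3 at 21.7, 11.9, 21.9 and 46.7 CPM and Ecel1 at 0, 0, 4.38 and 3.11 CPM, and the part of such background in their rise was not tested. Atf3, a transcription factor of the injury response, was at 96.4, 94.5, 101 and 147 CPM, with a log2 difference of 0.40 that did not pass (edgeR quasi-likelihood, Benjamini-Hochberg adjusted p = 0.19, higher in 2 of 2 CCI libraries). The remaining genes of the list that rose were Sox11, Jun, Gal, Tubb6, Cacna2d1, Tnfrsf12a, Itga7, Serpinb1a, Tubb2b, Smad1 and Sdc1.

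Of 12 testable neuropeptide genes, 4 rose and 0 fell (2.81% and 2.18% of all tested genes), with a median of 0.30. Vgf, a precursor of several peptides, was at 126, 115, 249.7 and 283 CPM, Gal, the galanin precursor, at 630.4, 718, 931 and 1167 CPM, and Adcyap1, which encodes the peptide PACAP, at 303, 366, 427 and 528 CPM. Gal also had a UMI in 10.1%, 3.92%, 26.6% and 63.3% of satellite glia-like cells, at 12.8, 17.8, 65.8 and 221 CPM, so it was higher there after CCI too, and the part of such background in its rise was not tested. Vgf, Gal and Adcyap1 rose by 1.17, 0.66 and 0.53 on the log2 scale, and Bdnf, also on this list, is given above. Calca, with a log2 difference of 0.12, and Tac1, with 0.25, did not pass. Of 10 listed opioid, cannabinoid, adrenergic and adenosine receptors, 7 were tested and 2 rose (2.81% of all), with a median of 0.55. Adora1, the inhibitory adenosine A1 receptor, was at 51.4, 54.8, 83.9 and 95.5 CPM and rose by 0.77. Oprm1, the mu opioid receptor, was at 14.9, 16.04, 22.5 and 23.0 CPM and rose by 0.58. Among 9 neurotrophin and GDNF-family receptors, Gfra1 rose (0.85), and Ntrk3 (-0.54) and Gfra2 (-1.20) fell, with a median of -0.14 (2.81% of all genes rose and 2.18% fell). Ntrk3 lay mainly in the members high in 8 variable genes, whose share differed between libraries, and the part of that share in its difference was not tested.

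Sodium and potassium channel lists had medians below 0 after CCI. Of 34 tested potassium channel genes, 5 fell and 0 rose, beside 2.18% and 2.81% of all tested genes, with a median of -0.22. Kcns1, a modifying subunit, was at 2.93, 1.84, 0 and 0.220 CPM, Kcnn1, a calcium-activated channel, at 5.98, 6.07, 1.88 and 2.85 CPM, and Kcna2, a channel of myelinated axons, at 133, 119, 87.2 and 87.4 CPM. The values of each did not overlap, and Kcnd3 (-0.53) and Kcnj3 complete the 5. Of 11 sodium channel genes, 2 fell (2.18% of all), with a median of -0.21, among them Scn4b, an auxiliary subunit, at 23.8, 14.95, 5.42 and 4.61 CPM (-1.91). Of 13 calcium channel genes, 2 rose (2.81% of all), the auxiliary subunits Cacna2d1 (0.54) and Cacnb2 (0.99), with a median of 0.21. Of 17 TRP, Piezo, ASIC and P2X channel genes, Asic3, an acid sensor, fell (2.18% of all), at 44.4, 35.2, 31.1 and 23.9 CPM (-0.50), with a median of 0.05. Of 11 glutamate genes, Slc17a7 and Grin1 fell (2.18% of all), with a median of -0.03. Slc17a7, a vesicular glutamate transporter, was at 9.40, 6.72, 1.25 and 1.54 CPM (-2.49). Members with at least 2 UMIs in all 8 variable genes numbered 30 of 132, 31 of 219, 12 of 71 and 10 of 92. Their part in the falls of these channel and glutamate genes was not tested. By edgeR 0 of 4 HCN channels, 0 of 8 cholinergic genes, 0 of 7 collagens and 0 of 17 sensory transcription factors passed, with medians of 0.05, -0.19, -0.32 and -0.01.

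Lists for other cells and for general functions complete the picture. Of 9 testable A-fibre markers, 3 fell, Ntrk3 and Bmpr1b among them, and 0 rose, with a median of -0.54, beside 2.18% and 2.81% of all genes. For Ntrk3 the limit given above holds here too, and the part of members high in 8 variable genes in the other falls was not tested. Of 14 testable markers of other neuron classes, Npy1r and Avpr1a rose and Th fell (median 0.13), beside 2.81% and 2.18% of all genes. Npy1r, a neuropeptide Y receptor, was at 116, 128, 208 and 286 CPM, and Avpr1a, a vasopressin receptor, at 1.10, 0.867, 6.26 and 12.7 CPM. Immune markers were at a summed 38.8, 13.98, 2.29 and 3.73 CPM, with all 8 detected and Cd74 the most abundant at 13.2, 1.84, 0.626 and 0.659 CPM. Of 4 testable genes 2, Lyz2 and C1qa, fell (median -5.51), beside 2.18% of all genes. Both had 0 UMIs in members of the CCI libraries, so their fitted differences depend on the prior count. Schwann cell markers summed to 534, 534, 499 and 549 CPM with 0 of 4 tested genes passing in edgeR (median -0.11), and fibroblast markers to 6.96, 6.07, 3.13 and 8.12 CPM with 0 of 2 (median -0.13). Endothelial markers summed to at most 0.878 CPM and red blood cell markers to at most 4.52 CPM in any library, and 0 of both lists could be tested. Of 7 neuron markers 0 passed (median -0.01).

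Of 13 mitochondrially encoded genes 6 rose and 1 fell (median 0.38), beside 2.81% and 2.18% of all tested genes. Their summed level was 36141, 38181, 47323 and 49703 CPM in members and 41960.3, 44072, 50593 and 50535 CPM in other neurons, so both classes were higher after CCI, and the part of RNA quality was not tested. The nuclear genes of oxidative phosphorylation had a median of -0.19, with 3 of 77 lower and 0 higher, where 2.18% and 2.81% of all genes were. Ribosomal protein genes had a median of 0.02, with 7 of 77 higher and 3 lower (2.81% and 2.18% of all), and immediate early genes a median of -0.24, with Ier5 higher among 19.

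The difference between the CCI change in members and that in Dcn Tmc3 neurons was tested as an interaction, to ask where the classes that share Col25a1 and Slc5a7 part. Of 12351 genes, 35 passed (0.283%) by the edgeR quasi-likelihood test with Benjamini-Hochberg adjustment, 26 with a higher (0.211%) and 9 with a lower (0.0729%) change in members. Socs1, Socs3, Tifa and Trpa1 were among the former. The count was 11 with DESeq2, 58 without shared barcodes (with 25 of the 35 among them), 114 without Male-Sham and 129 without Female-Sham.

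Tifa, an adaptor that links receptors of innate immunity to NF-kappaB, was at 25.5, 26.0, 77.2 and 128 CPM in members and at 3.84, 7.61, 3.53 and 2.14 CPM in Dcn Tmc3 neurons. Both CCI libraries stood out in members and no rise appeared in Dcn Tmc3 neurons. The difference of the log2 changes was 2.99 (SE 0.43), higher in members in 2 of 2 sexes (edgeR quasi-likelihood, Benjamini-Hochberg adjusted p = 0.013). Trpa1, a channel opened by irritant chemicals, was at 14.9, 18.9, 55.9 and 144 CPM in members and at 4.03, 4.98, 5.14 and 12.4 CPM in Dcn Tmc3 neurons, and Female-CCI was the highest library in both classes. The difference was 1.62 (SE 0.27), positive in 2 of 2 sexes (edgeR quasi-likelihood, Benjamini-Hochberg adjusted p = 0.024). It did not pass without shared barcodes (1.30, edgeR quasi-likelihood, Benjamini-Hochberg adjusted p = 0.10) or without Female-CCI (1.57, edgeR quasi-likelihood, Benjamini-Hochberg adjusted p = 0.12). Within members alone, the log2 difference of Trpa1 with CCI was 2.57 and did not pass (edgeR quasi-likelihood, Benjamini-Hochberg adjusted p = 0.24, higher in 2 of 2 CCI libraries). In the cells high in the 8 variable genes Trpa1 was at 8.06, 4.52, 13.4 and 14.8 CPM, and in the remaining members at 19.9, 24.6, 83.0 and 181 CPM. Socs1, an inhibitor of cytokine receptor signalling, was at 14.9, 11.4, 22.9 and 38.0 CPM in members and 23.2, 20.1, 12.8 and 18.0 CPM in Dcn Tmc3 neurons. Its CCI values were higher in members and lower in Dcn Tmc3 neurons, a difference of 1.72 (SE 0.21, edgeR quasi-likelihood, Benjamini-Hochberg adjusted p = 0.0049, positive in 2 of 2 sexes).

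Tmem233, a small transmembrane protein, had the largest difference of the named genes. It was at 95.3, 76.4, 64.5 and 32.5 CPM in members and at 60.9, 72.4, 3.21 and 3.0004 CPM in Dcn Tmc3 neurons, where nearly all of it was lost after CCI. The difference was 3.69 (SE 0.36), positive in 2 of 2 sexes (edgeR quasi-likelihood, Benjamini-Hochberg adjusted p = 0.0041). The call ended without Male-CCI (3.13) and without Female-CCI (4.01). It also ended without the cells with the highest doublet scores (0.80, edgeR quasi-likelihood, Benjamini-Hochberg adjusted p = 0.43). In Male-CCI a single member held 129 of its 309 UMIs. Plxnc1, a semaphorin receptor, was at 32.2, 31.3, 38.4 and 48.1 CPM in members and 21.1, 22.3, 9.63 and 7.29 CPM in Dcn Tmc3 neurons (difference 1.79). Ptprt (1.60) and Arxes1 (1.39), which rose in members, also had a higher change there than in Dcn Tmc3 neurons. Bdnf (0.82), Socs3 (0.99) and Fabp7 (-0.91) passed as members of the lists. In Dcn Tmc3 neurons satellite glia markers summed to 5160.1, 5374, 4819 and 4555 CPM, above the members in all libraries, and their part in the difference of Fabp7 was not tested. By list, Bdnf of 14 neuropeptides, Trpa1 of 16 TRP, Piezo, ASIC and P2X channels and Socs3 of 21 immediate early genes passed with a higher change (0.211% of all genes), as did 0 of 30 injury-induced genes in edgeR. Trpa1 was also the 1 of 19 tested markers of other classes that passed, and Fabp7 the 1 of 9 satellite glia markers with a lower change (0.0729% of all genes). DESeq2 did not call Plxnc1, Socs1 and Trpa1. Removing the cells with the highest doublet scores also ended the calls of Tifa (2.00) and Trpa1 (1.41). Asking for 4 gate genes ended those of Tmem233 (1.60) and Ptprt (1.99), and thinning to 20000 UMIs those of Socs1 (1.28) and Trpa1 (1.42). Each of these settings had fewer members. Without shared barcodes the differences were 2.94 (Tmem233), 3.40 (Tifa), 2.04 (Plxnc1), 1.89 (Socs1), 1.67 (Ptprt) and 1.30 (Arxes1), and these kept their calls.

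**Figure D5:**
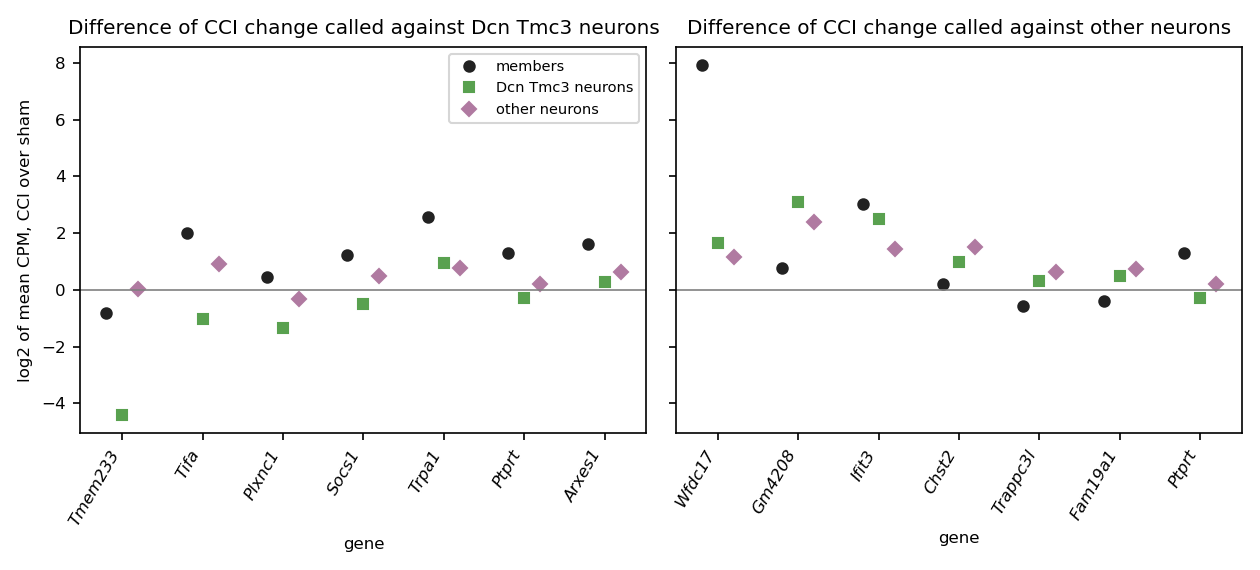
Log2 of mean CPM in CCI over sham libraries, in members, Dcn Tmc3 neurons and other neurons, for the genes named in each interaction test.

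The same test against all other neurons with low Sprr1a asked which changes set members off from neurons at large. Of 15401 genes, 191 passed (1.24%), 69 with a higher (0.448%) and 122 with a lower (0.792%) change in members, by edgeR quasi-likelihood with Benjamini-Hochberg adjustment. The count was 87 with DESeq2, 160 without shared barcodes (with 103 of the 191 among them), 310 without Female-Sham and 310 without Male-CCI.

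Trappc3l, which belongs to a vesicle-tethering family, was at 321, 249, 213 and 171 CPM in members and at 38.0, 29.6, 53.7 and 51.3 CPM in other neurons. It was lower after CCI in members and higher in other neurons, a difference of -1.18 (SE 0.08, edgeR quasi-likelihood, Benjamini-Hochberg adjusted p = 5.7e-13, negative in 2 of 2 sexes). Fam19a1, a secreted chemokine-like protein, followed the same course, with 74.0, 58.5, 56.7 and 43.0 CPM in members and 7.94, 6.59, 12.02 and 12.2 CPM in other neurons (difference -1.11). Fam19a1 lay in the members high in 8 variable genes, at 164, 175, 131 and 174 CPM, with 7.42, 11.6, 9.56 and 5.37 CPM in the remaining members, near other neurons. Chst2, a sulfotransferase, was at 58.1, 46.0, 54.5 and 64.5 CPM in members and 9.39, 9.53, 23.2 and 30.8 CPM in other neurons, so the rise lay in the other neurons (difference -1.28). Gm4208 was at 12.6, 17.9, 20.4 and 31.4 CPM in members and 0.973, 1.36, 4.71 and 7.69 CPM in other neurons (difference -1.60). For Trappc3l, Chst2 and Gm4208 the CPM ratio of members over other neurons was lower after CCI. Ptprt (1.11) had a higher change in members, as against Dcn Tmc3 neurons.

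Ifit3, an interferon-induced gene, was at 1.95, 3.47, 16.9 and 27.0 CPM in members and 5.12, 6.41, 15.9 and 15.6 CPM in other neurons (difference 1.58, SE 0.27, edgeR quasi-likelihood, Benjamini-Hochberg adjusted p = 0.00094, positive in 2 of 2 sexes). Single cells held 31 of its 81 UMIs in Male-CCI and 29 of its 123 in Female-CCI, and without shared barcodes the difference of 1.37 did not pass (edgeR quasi-likelihood, Benjamini-Hochberg adjusted p = 0.88). Wfdc17, a small protease inhibitor, had a difference of 6.70 on few cells. It had 0, 2, 49 and 197 UMIs in members, of which 1 cell held 44 in Male-CCI and 1 cell 193 in Female-CCI. Without shared barcodes its difference was 0.50 and did not pass, and without Female-Sham it was 12.03. With 0 Sprr1a UMIs it was -6.08, and Ifit3 lost its call. Asking for 4 gate genes ended the calls of Wfdc17, Ifit3 and Ptprt, thinning to 20000 UMIs those of Wfdc17, Ifit3, Trappc3l and Fam19a1, and leaving out the cells high in the 8 variable genes that of Fam19a1. Without shared barcodes -1.71 (Gm4208), -1.42 (Chst2), -1.09 (Trappc3l), -1.24 (Fam19a1) and 1.10 (Ptprt) were called.

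By list, the injury-induced genes that passed against other neurons all changed less in members, 5 of 37 tested (0.792% of all genes), with a list median of -0.06 beside -0.01 for all genes. Gap43, a growth cone protein, was at 1389, 1345, 1733 and 1718 CPM in members and 472, 548, 883 and 1010.4 CPM in other neurons (difference -0.52). Gadd45a (-0.68), Csf1 (-1.02), Tnfrsf12a (-0.99) and Sema6a (-1.97) were the others. In the other direction, 4 of 22 tested markers of other neuron classes had a higher change in members and 0 a lower one. Over all genes these shares were 0.448% and 0.792%, and the list median was -0.10. Of 11 A-fibre markers 2 had a lower change and 0 a higher one (median -0.66). Of 7 satellite glia markers 1 had a lower change (median -0.71). Adora1, of 9 tested opioid, cannabinoid, adrenergic and adenosine receptors (0.83), changed more in members, at 41.5, 38.7, 37.6 and 40.2 CPM in other neurons. Bdnf (0.69) was the 1 of 19 tested neuropeptides that passed, where 0.448% of all genes were higher. Of 11 sodium channel genes, Scn8a (-0.61) and Scn4b (-1.36) were lower. Of 38 potassium channel genes, 1 was higher and 3 were lower. Of 19 TRP, Piezo, ASIC and P2X channel genes, Asic3 (-0.52) was lower. These counts and those that follow stand beside 0.448% of all genes higher and 0.792% lower. Slc17a7 (-2.37) of 13 glutamate genes, Ntrk3 (-0.66) of 9 neurotrophin and GDNF-family receptors and Col11a1 (-1.50) of 10 collagens were lower as well. Of 20 transcription factors, Runx1 (0.53) was higher and Creb5 (-0.98) and Onecut2 (-0.59) were lower. Onecut2 is 1 of the 8 variable genes, and the share of cells high in them was higher after CCI in other neurons and not in members, with the shares given above. Serpinb1a, also 1 of the 8, rose with CCI in members, so the definition of these cells is not independent of CCI. The part of such cells in these differences, and of Serpinb1a in the shares, was not tested. Of 7 tested immune markers 5 were lower (0.792% of all genes), with the summed levels of members given above and 6.74, 2.88, 9.66 and 7.78 CPM in other neurons, and their part in the count was not tested.

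Female against male libraries asked whether members differ by sex. Of 11997 genes, 88 passed (0.734%), 46 higher (0.383%) and 42 lower (0.35%) in females, by edgeR quasi-likelihood with Benjamini-Hochberg adjustment. The fit had 1 residual degree of freedom, and the median of its prior degrees of freedom was infinite. For most genes the spread was thus taken over all genes and not from the gene's own values. The p-values for sex therefore do not measure a gene's own spread between libraries. DESeq2 called 2, and without shared barcodes the count was 29, with 18 of the 88 among them. Without the cells high in the 8 variable genes it was 48, with 31 of the 88 among them. Leaving out a library could not be fitted. The sexes matched their labels: Xist, the X-inactivation transcript, was at 0, 264, 0.209 and 282 CPM, and the Y-linked Ddx3y at 41.1, 0, 34.0 and 0 CPM and Eif2s3y at 29.5, 0, 30.5 and 0 CPM.

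Autosomal differences were smaller. Nsg1, a protein of neuronal endosomes, was at 15.9, 27.5, 35.7 and 79.2 CPM, higher in the female library of each surgery (log2 difference 1.00, SE 0.12, edgeR quasi-likelihood, Benjamini-Hochberg adjusted p = 9e-13, 2 of 2 surgeries), and 1.00 without shared barcodes. Ifi27l2a, an interferon-induced gene, was at 17.2, 30.7, 16.7 and 36.9 CPM (0.98) and Igfbp2, a binding protein of insulin-like growth factors, at 26.7, 52.4, 26.1 and 37.8 CPM (0.82), both higher in females in 2 of 2 surgeries, with 0.89 (Ifi27l2a) and 0.76 (Igfbp2) without shared barcodes. Cyr61, a matrix protein, was at 20.3, 32.9, 11.7 and 25.5 CPM (0.86), and its call ended without shared barcodes (0.47), with 4 gate genes, with 0 Sprr1a UMIs and after thinning to 20000 UMIs. Nrgn, a calmodulin-binding protein, was at 22.0, 16.4, 45.3 and 10.5 CPM (-1.09) and had 0.14, the other direction, without shared barcodes. Each other setting in which it could be tested also ended its call. DESeq2 called none of Ddx3y, Eif2s3y, Nsg1, Ifi27l2a, Igfbp2, Cyr61 and Nrgn. Of 19 immediate early genes, 5 were higher in females and 0 lower (0.383% and 0.35% of all), with a list median of 0.33 beside 0.00 for all genes, and Cyr61, Ier2, Nr4a1, Zfp36 and Socs3 were those genes. These genes respond to tissue handling as well as to activity, and the part of handling was not tested. Trpa1 was higher in females (1.01), with the values given above. Members high in the 8 variable genes held less Trpa1 and were more frequent in the male library of each surgery, with the shares given above. The part of these cells in the sex differences was not tested.

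Promoters of the named genes were read for a motif, which was chosen after the values of Eif2ak2, Gbp7 and Ifit3 were seen. The letters GAAA, any 2 bases and GAAA again, as in interferon-stimulated response elements, were searched on both strands from 250 bases before to 50 bases after each start in RefSeq promoters of GRCm38.p6. They occurred in 1131 of 32851 promoters (3.44%) and in 1079 of 27025 genes (3.99%). Of 12 genes named for a rise with CCI, 9 had a promoter in the table, with 16 promoters, and 3 genes, each in 1 promoter, held the letters (Bdnf, Eif2ak2 and Gbp7), as did 1 of 9 genes named for a fall (Selenop). Of the genes named against Dcn Tmc3 neurons, 2 of 6 held them (Plxnc1 and Socs1), and against other neurons 1 of 6 (Ifit3). The cyclic AMP response element TGACGTCA, on both strands, was in 588 promoters (1.79%), in 0 of the 9 risen genes and in 1 of the 9 fallen genes (Gpm6b). A match describes the letters only. The promoters of Eif2ak2 (chr17:78882523-78882822, minus strand), Gbp7 (chr3:142530086-142530385, plus strand), Socs1 (chr16:10785487-10785786, minus strand) and Ifit3 (chr19:34583279-34583578, plus strand) are printed because, of the genes that hold the letters, these are known as interferon-induced genes or regulators of cytokine signalling, a choice made after the matches were seen, and Bdnf, Selenop and Plxnc1 are left out. Each is 300 bases, 5' to 3' on the strand of the gene, and capitals mark the letters of the motif or, on the other strand, their reverse complement.

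Eif2ak2: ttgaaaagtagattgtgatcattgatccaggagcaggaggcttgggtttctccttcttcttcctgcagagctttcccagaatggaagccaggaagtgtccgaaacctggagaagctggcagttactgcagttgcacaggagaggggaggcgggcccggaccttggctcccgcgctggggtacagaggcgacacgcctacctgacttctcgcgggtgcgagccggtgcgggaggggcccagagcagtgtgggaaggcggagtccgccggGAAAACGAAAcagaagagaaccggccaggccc
Gbp7: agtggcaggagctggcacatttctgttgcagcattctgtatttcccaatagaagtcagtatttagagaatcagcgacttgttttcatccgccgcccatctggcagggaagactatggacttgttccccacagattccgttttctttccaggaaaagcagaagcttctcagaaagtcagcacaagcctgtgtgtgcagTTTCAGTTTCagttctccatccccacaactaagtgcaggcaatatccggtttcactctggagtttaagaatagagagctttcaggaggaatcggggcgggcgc
Socs1: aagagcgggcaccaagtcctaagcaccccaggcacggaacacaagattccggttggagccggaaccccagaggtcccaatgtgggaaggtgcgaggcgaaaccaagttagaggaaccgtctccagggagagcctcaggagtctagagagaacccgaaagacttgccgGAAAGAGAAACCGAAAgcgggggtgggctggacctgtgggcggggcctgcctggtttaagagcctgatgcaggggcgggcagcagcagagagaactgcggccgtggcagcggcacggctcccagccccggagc
Ifit3: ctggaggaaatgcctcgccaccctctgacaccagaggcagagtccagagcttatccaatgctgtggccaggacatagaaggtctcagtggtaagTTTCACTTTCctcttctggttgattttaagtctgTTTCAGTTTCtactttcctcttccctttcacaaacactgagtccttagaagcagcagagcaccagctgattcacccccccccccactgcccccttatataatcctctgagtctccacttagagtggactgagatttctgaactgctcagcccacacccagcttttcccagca

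In Gbp7 the match began 53 bases before the start, in Socs1 overlapping matches began 83 and 77 bases before it, and in Ifit3 they began 156 and 122 bases before it. In Eif2ak2 it lay 18 bases after the start. Levels of these genes in members and other classes are given with each comparison above.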

How the data were processed

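The deposited matrices of the 4 libraries hold UMI counts per gene and cell for 31053 genes, made by the authors with Cell Ranger (version 2.1.1 in the submitters' notes, 3.0.2 in the file headers) on mm10. Of 23691 deposited cells, 17836 (75.3%) had at least 1500 genes, at most 10% mitochondrial UMIs and at least 5000 UMIs. Dcn Tmc3 neurons had at least 1 Tmc3 UMI, at least 2 Dcn UMIs, ln(Sprr1a per 10000 UMIs + 1) of at most 1 and were not members. Other neurons were the remaining neurons within that Sprr1a limit. The members and the gene lists were chosen with earlier results of these data known.

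UMIs were summed per library and class. Tests used edgeR 4.0.16 (filterByExpr, TMM, quasi-likelihood F test with robust fit, Benjamini-Hochberg) in R 4.3.3, with DESeq2 1.42.0 as the other tool. CCI was tested against sham over 2 and 2 libraries, and the change was compared between classes with library as a block. Sex was tested with surgery in the fit. The gate genes, Dcn and Sprr1a were left out of the tests, as were genes that defined the other class in an interaction. Median depth per member is given in the report, and the biological coefficient of variation was 0.0759 for CCI, 0.0468 and 0.0373 for the interactions and 0.0586 for sex. The libraries carry a replicate number that stands for sex.

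Scrublet in scanpy 1.11.5 (expected rate 0.1, Python 3.11.15) called 7, 272, 7 and 0 doublets. Doublets were kept. In an alternative, named doublets removed, the cells of the highest scores were taken out, as many per library as the study had removed as doublets. These included 600, 1083, 482 and 552 neurons, so they were more cells than Scrublet called. Other alternatives were no filter on low counts, library totals in place of TMM, sex as a block, 4 gate genes, 0 Sprr1a UMIs, low satellite glia RNA, thinning of cells and leaving out each library. Thinning to 20000 UMIs, leaving out shared barcodes and leaving out cells high in 8 variable genes were added after the values had been seen.

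Named genes followed a rule. It took the 15 genes with the largest lowest ratio of members over other neurons at 50 CPM or more. For CCI it took up to 12 called genes of each direction that changed in the same direction in both sexes. For each interaction and for sex it took up to 8 called genes, with no condition on direction. These called genes had 20 CPM or more in the higher group, as a mean of its libraries for the interactions. The 10 most variable genes and the genes of the lists were also taken. Some genes that the rule and the lists hold are not reported here. Gene positions are from GENCODE vM21 (GRCm38), matched for 30934 genes.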

Additional observations from a re-analysis of the deposited data

Results flagged for a closer look

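A tested difference between classes in the change with CCI brought these results here. Between members and Dcn Tmc3 neurons 35 genes differed. The named ones had differences of 3.69 (Tmem233), 2.99 (Tifa), 1.79 (Plxnc1), 1.72 (Socs1), 1.62 (Trpa1), 1.60 (Ptprt) and 1.39 (Arxes1). Between members and other neurons 191 genes differed. The named ones had differences of 6.70 (Wfdc17), -1.60 (Gm4208), 1.58 (Ifit3), -1.28 (Chst2), -1.18 (Trappc3l), -1.11 (Fam19a1) and 1.11 (Ptprt). For Wfdc17, 1 cell held 44 of 49 UMIs in Male-CCI and 1 cell 193 of 197 in Female-CCI. Technical and biological explanations of these differences were not tested.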

How the results depend on the processing

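With 2 pooled libraries per surgery the spread between mice cannot be estimated, and genes with few UMIs per member are not resolved. Of the named genes, 10 of 24 for CCI, 1 of 8 against Dcn Tmc3 neurons, 3 of 8 against other neurons and 1 of 8 for sex were called under every setting. For CCI, against 599 genes, DESeq2 gave 311, no filter on low counts 923, and thinning to 20000 UMIs 325, and leaving out a library gave 484 to 981. Sex as a block gave 963, while the male libraries' deviations from their surgery means correlated at 0.196 (Pearson) and 0.0826 (Spearman) over 12004 genes. Against Dcn Tmc3 neurons (35), DESeq2 gave 11, no filter 223, doublets removed 71, 0 Sprr1a UMIs 113, low satellite glia RNA 58, shared barcodes removed 58, without cells high in 8 genes 89, and leaving out a library 38 to 129. Against other neurons (191), DESeq2 gave 87, 4 gate genes 124, thinning to 20000 UMIs 66, and leaving out a library 139 to 310. For sex (88), DESeq2 gave 2, library totals 37, doublets removed 56, 4 gate genes 54, 0 Sprr1a UMIs 25, thinning to 20000 UMIs 14, shared barcodes removed 29 and without cells high in 8 genes 48. Leaving out a library could not be fitted for sex, and tests after thinning to 5000 UMIs were not run, because too few members remained. The difference in member share, -1.24 points, was -0.809 with doublets removed, -0.692 with 4 gate genes, -1.003 without a Sprr1a limit, -0.256 and -0.952 after thinning to 5000 and 20000 UMIs, -1.13 without shared barcodes, -0.892 without cells high in 8 genes and 1.11, reversed, over neurons with low Sprr1a, and -1.28 to -1.20 with a library left out. The lowest median level ratio, 3.60, was 3.26 with 0 Sprr1a UMIs and 3.60 to 4.18 with a library left out, where a lowest value can only stay or rise. Wfdc17 against other neurons reversed to -6.08 with 0 Sprr1a UMIs, and Nrgn for sex to 0.14 without shared barcodes. The causes were not tested.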
